A study of Mus musculus with 6 samples.

Results

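A set of 7 protein-coding genes was examined because their reads nearly vanished, or fell, in leukemic blasts without TET2. They are *Slc15a2*, *Rapgefl1*, *Adamts13*, *Fsd2*, *Vmn2r96*, *Gm16867* and *Ptprf*, which is 7 of the 53458 genes with a deposited transcript and 7 of the 22170 genes tested. They were chosen by their reads in these same 6 mice, so their differences between genotypes are given as a description and not as a test. All 7 passed the filter on low counts, and 6 of them passed it through the *Tet2*+/+ mice only. The working name "near silent" holds for 6 of the 7 genes by the reads assigned to them, and for *Gm16867* it is not established, since an identical sequence nearby kept reads. Each of these 6 had at most 3 reads in every Cebpa-/p30 Tet2-/- mouse, whereas *Ptprf* kept between 56 and 109 reads there and was lowered but not near silent.

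The blasts came from a mouse model of acute myeloid leukemia (AML) with mutant *Cebpa*, in which 3 mice with intact *Tet2* (Cebpa-/p30 Tet2+/+, mice 19, 23 and 24) were set against 3 without it (Cebpa-/p30 Tet2-/-, mice 5, 7 and 8). Both genotypes carry 1 *Cebpa* allele that makes only the short p30 isoform and lose the other, so neither makes the full-length p42 isoform. Bone marrow of C57BL/6 donors (C57BL/6J per the methods) was transplanted into irradiated congenic C57BL/6J.SJL females, and the floxed alleles were then deleted through Mx1-Cre, an interferon-responsive Cre that is not restricted to myeloid cells and was induced with poly(I)-poly(C). Donor-derived marrow cells negative for CD3, B220 and Ter119 were sorted from moribund mice, and 1 poly(A) RNA library was made per mouse.

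TET2 oxidizes 5-methylcytosine in DNA, a step towards its removal, and methylation of CpG dinucleotides at a promoter often goes with a silent gene. The 7 genes share no pathway. *Slc15a2* encodes PEPT2, a proton-coupled transporter of di- and tripeptides. *Rapgefl1* encodes a protein related to the exchange factors of Rap GTPases, and *Adamts13* the plasma protease that cleaves von Willebrand factor. *Fsd2* encodes minispryn, a protein of striated muscle, *Vmn2r96* a predicted pheromone receptor of the vomeronasal organ, and *Ptprf* the receptor tyrosine phosphatase LAR. *Gm16867* is a predicted gene with no established function.

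The genes lie on 7 different chromosomes. Their promoters are shown because CpG dinucleotides are the substrate of DNA methylation. RefSeq (GRCm38.p6) had an entry for all 7 genes, with a 300-base window from 250 bases before the start site to 50 after it. The windows of 4 genes are given 5′ to 3′, with each CpG in capitals. *Slc15a2* (chr16:36784913-36785212, minus strand) and *Adamts13* (chr2:26973166-26973465, plus strand) stand for the windows with fewer CpG. *Rapgefl1* (chr11:98836535-98836834, plus strand) and *Ptprf* (chr4:118291348-118291647, minus strand) are the CpG-rich ones.
Slc15a2: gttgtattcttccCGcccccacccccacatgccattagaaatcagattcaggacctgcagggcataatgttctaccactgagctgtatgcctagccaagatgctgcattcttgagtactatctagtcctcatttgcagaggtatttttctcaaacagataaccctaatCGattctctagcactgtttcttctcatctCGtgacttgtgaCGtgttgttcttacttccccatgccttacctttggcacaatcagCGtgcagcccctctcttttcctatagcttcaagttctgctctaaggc
Adamts13: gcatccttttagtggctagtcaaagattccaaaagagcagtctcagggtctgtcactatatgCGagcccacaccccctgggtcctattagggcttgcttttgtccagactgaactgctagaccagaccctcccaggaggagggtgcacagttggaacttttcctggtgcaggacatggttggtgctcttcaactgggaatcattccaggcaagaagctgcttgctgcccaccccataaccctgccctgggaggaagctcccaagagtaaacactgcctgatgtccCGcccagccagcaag
Rapgefl1: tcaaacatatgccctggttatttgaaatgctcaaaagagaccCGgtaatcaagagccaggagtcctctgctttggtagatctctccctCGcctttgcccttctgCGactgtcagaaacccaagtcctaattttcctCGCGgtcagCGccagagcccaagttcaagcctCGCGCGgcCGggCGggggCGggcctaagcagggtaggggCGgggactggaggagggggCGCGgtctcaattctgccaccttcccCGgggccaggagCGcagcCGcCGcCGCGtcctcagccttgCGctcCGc
Ptprf: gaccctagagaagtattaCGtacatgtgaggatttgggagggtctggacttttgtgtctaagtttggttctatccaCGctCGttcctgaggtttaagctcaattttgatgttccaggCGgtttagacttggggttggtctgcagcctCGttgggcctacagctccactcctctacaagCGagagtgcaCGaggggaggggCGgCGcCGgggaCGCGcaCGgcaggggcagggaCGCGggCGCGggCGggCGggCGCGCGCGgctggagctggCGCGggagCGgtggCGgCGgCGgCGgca

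The *Slc15a2* window held 5 CpG and the *Adamts13* window 2, against a median of 7 over all 32851 RefSeq windows of this length. These counts are above those of 38.0% and 14.1% of all windows. The *Rapgefl1* window held 23 CpG, more than 78.5% of all windows, and the *Ptprf* window held 30, more than 88.3%. *Fsd2* (chr7:81566932-81567231, minus strand) held 8 CpG, *Vmn2r96* (chr17:18581477-18581776, plus strand) 2, and the nearer of the 2 *Gm16867* windows (chr14:69503745-69504044, minus strand) 4. The near-silent genes thus had both CpG-rich and CpG-poor promoters. The RefSeq start site behind the *Vmn2r96* window is the first base of *Vmn2r96*-201, 8576 bases inside the gene, and that behind the *Gm16867* window lies 432 bases outside the annotated gene, so these windows are not those of all their transcripts. Methylation itself was not analysed here.

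**Figure D1:**
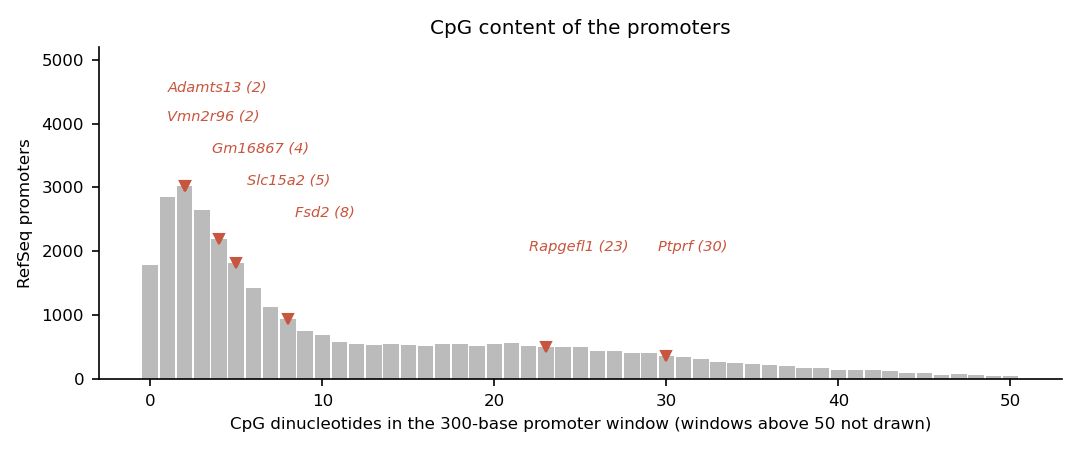
CpG dinucleotides per 300-base promoter window (x axis) against the number of RefSeq windows with that count (y axis), with triangles and counts for the 7 genes. The other genes have 8 CpG or fewer, and *Rapgefl1* with 23 and *Ptprf* with 30 sit in the CpG-rich tail.

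Short motifs were searched on both strands of the windows. TTNCNNAA, a C/EBP-type core in which N is any base, was found for 4 of the 7 genes (*Slc15a2*, *Adamts13*, *Vmn2r96* and *Gm16867*) and in 40.7% of all windows. Of the motifs that GATA factors recognise, TGATAA was found for *Vmn2r96* alone and in 9.05% of all windows. The second such motif, AGATAA, was found for *Slc15a2* and *Vmn2r96* and in 11.2% of all windows. A match is a description of the sequence and does not show binding.

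Between 13036643 and 32855343 reads per mouse were assigned to transcripts, and the deepest library was the *Tet2*-/- mouse 5. *Tet2* itself had 73.6, 79.5 and 98.4 CPM (read counts scaled to library size and normalized by TMM) in mice 19, 23 and 24 and 111, 79.4 and 96.7 in *Tet2*-/- mice 5, 7 and 8. This gene-level sum includes exons outside any deletion, the deleted exons are not given in the sources used here, and the sum therefore does not check the genotype labels. Blast markers were present in every mouse, with 9 of 9 tested and summed levels of 7860 to 9721 CPM in *Tet2*+/+ and 7752 to 10224 CPM in *Tet2*-/- mice. Within this list *Mpo* was lower without overlap, at 4110 to 4527 CPM in *Tet2*+/+ and 2662 to 3394 CPM in *Tet2*-/- mice. *Ms4a3* was higher without overlap, at 137 to 248 CPM against 291 to 331 CPM. The other markers of the list overlapped between genotypes. The mice are separate recipients. Donors were each transplanted into several recipients, and which of these mice share a donor is not given, so p-values measure only the spread between these mice.

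*Slc15a2* (ENSMUSG00000022899, chr16:36750177-36784962 of GRCm38, minus strand) had the highest length-corrected level of the 7 genes, summed over its transcripts. It had 360, 395 and 470 reads in *Tet2*+/+ mice 19, 23 and 24, and 2, 2 and 0 reads in *Tet2*-/- mice 5, 7 and 8. In CPM, the *Tet2*+/+ mice held 25.3 ± 6.79 (SD, n = 3), at least 168-fold more than the floor that 3 reads give in the *Tet2*-/- libraries. Every *Tet2*+/+ mouse was high and every *Tet2*-/- mouse was at or near 0. The level was 13.6 ± 2.71 TPM (SD, n = 3) in *Tet2*+/+ mice, where TPM is the length-corrected abundance with the same total in every mouse.

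The full-length coding transcript *Slc15a2*-201 carried most of these reads, with 75.0%, 69.7% and 74.7% in mice 19, 23 and 24. Over TPM, which weights short transcripts more, its level was 2.48, 2.56 and 4.18 TPM, a share of at most 25.02%. By this share the short *Slc15a2*-202 led in mouse 19 with 46.0%, and *Slc15a2*-203 led in mice 23 and 24 with 26.5% and 25.9%. *Slc15a2*-201 spans the whole gene in 22 exons, and 1623 of its 3994 bases lie in no other annotated transcript. The remaining reads were assigned to retained-intron and processed transcripts in the 3′ part of the gene. Among these, *Slc15a2*-203 took 7.05%, 9.58% and 8.26% of the reads, *Slc15a2*-211 took 4.82%, 7.94% and 6.83%, and *Slc15a2*-202 took 8.98%, 4.45% and 3.82%. The first 103 bases of *Slc15a2*-202 aligned to transcripts of 247 other genes at 90% identity or more, so its reads are uncertain, while the other *Slc15a2* transcripts had no such alignment. No read in any mouse was assigned to 7 of the 14 transcripts, among them the short coding forms that end early, *Slc15a2*-205 and *Slc15a2*-212. The processed pseudogene *Gm8425*, on the other strand within the gene, had between 0 and 17 reads per mouse and did not differ between genotypes beyond its error (log2 fold change 0.77, standard error, SE, 1.07).

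*Rapgefl1* (ENSMUSG00000038020, chr11:98836785-98853697, plus strand) had 131, 180 and 185 reads in mice 19, 23 and 24 and 2, 3 and 2 reads in *Tet2*-/- mice 5, 7 and 8. The *Tet2*+/+ level was 10.2 ± 2.64 CPM (SD, n = 3), at least 67.7-fold above the 3-read floor. The mice of the 2 genotypes did not overlap, and the 3 *Tet2*+/+ mice lay within 1.66-fold of each other.

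The *Rapgefl1* reads were not spread evenly along the gene. The retained-intron transcript *Rapgefl1*-203 (chr11:98850332-98852999), at the 3′ end, took 69.0%, 78.4% and 66.8% of the reads in mice 19, 23 and 24, and the only coding transcript, *Rapgefl1*-202, took 27.6%, 20.3% and 31.4%. Per kb of transcript, this was 57.0 reads for *Rapgefl1*-203 and 8.98 for *Rapgefl1*-202, as means of the *Tet2*+/+ mice. The 3′ transcript is 2077 bases long, and 98.4% of it lies inside exons of the coding transcript, so that only 33 bases set it apart. The measured fact is therefore a higher read density over the shared 3′ exons than over the rest of the coding transcript, and the share of reads from a retained intron is not resolved. Within these exons, a stretch of 91 bases (4.38% of *Rapgefl1*-203) aligned to 20 other genes. Of the 7 reads in *Tet2*-/- mice, 3 were on *Rapgefl1*-203, 3 on the internal *Rapgefl1*-201 and 1 on the coding transcript.

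*Adamts13* (ENSMUSG00000014852, chr2:26973416-27009628, plus strand) was the gene to which no read was assigned in the *Tet2*-/- mice. It had 44, 29 and 80 reads in mice 19, 23 and 24 and 0, 0 and 0 in *Tet2*-/- mice 5, 7 and 8. The *Tet2*+/+ level was 3.27 ± 2.11 CPM (SD, n = 3), at least 21.8-fold above the 3-read floor. Without mouse 24, the highest, the bound was 13.9-fold.

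The shorter coding transcript *Adamts13*-201 carried 87.7%, 100% and 84.9% of the reads in the *Tet2*+/+ mice. It ends at position 26998580, before the last exons of the full-length transcript *Adamts13*-202, which took 8.64%, 0% and 8.24%. C57BL/6 and related strains are known to carry an intracisternal A particle, a retrotransposon, within *Adamts13* that ends its transcripts early. In the transcript set, 283 bases at the 3′ end of *Adamts13*-201 aligned to transcripts of other genes, such as *Fmo1* at 99.3% identity, and reads from this stretch cannot be placed on 1 gene with certainty. No *Adamts13* transcript was assigned a read in a *Tet2*-/- mouse, but reads of the shared stretch could have been assigned to the other genes.

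*Fsd2* (ENSMUSG00000038663, chr7:81533308-81566944, minus strand) has a single annotated transcript of 13 exons. It had 49, 84 and 71 reads in mice 19, 23 and 24 and 1, 0 and 2 reads in *Tet2*-/- mice 5, 7 and 8. The *Tet2*+/+ level was 4.14 ± 1.08 CPM (SD, n = 3), at least 27.6-fold above the floor. It was the lowest of the 7 genes per length, at 0.581 ± 0.182 TPM (SD, n = 3). No part of its transcript aligned to another gene over 75 bases at 90% identity.

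*Vmn2r96* (ENSMUSG00000091679, chr17:18573151-18616003, plus strand) had 215, 377 and 896 reads in mice 19, 23 and 24 and 1, 0 and 1 reads in *Tet2*-/- mice 5, 7 and 8. The *Tet2*+/+ mice differed 4.91-fold among themselves, at 12.9, 20.2 and 63.1 CPM, and mouse 24 was the highest. Their mean was 32.0 ± 27.1 CPM (SD, n = 3). By the reads as assigned it was at least 213-fold above the 3-read floor, the largest such bound of the 6 near-silent genes. Without mouse 24 the bound was 110-fold and ranked second, below *Slc15a2* at 142-fold.

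Its reads fell on 3 of 4 transcripts. *Vmn2r96*-204, annotated as a target of nonsense-mediated decay, took 60.3%, 47.2% and 47.1% of the reads in mice 19, 23 and 24. The coding transcript *Vmn2r96*-201 took 30.6%, 38.3% and 36.5%, and *Vmn2r96*-203, a second decay target, 9.09%, 14.6% and 16.4%. The longer coding transcript *Vmn2r96*-202 received no read in any mouse. *Vmn2r96*-204 has 522 bases outside the other transcripts, including its last exon, while *Vmn2r96*-201 and *Vmn2r96*-203 have 0 bases of their own, so the split between them is an estimate. Per kb, *Vmn2r96*-201 had the most reads, 76.5 against 40.1 for *Vmn2r96*-204.

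*Gm16867* (ENSMUSG00000093954, chr14:69363504-69503362, minus strand) had 278, 44 and 43 reads in mice 19, 23 and 24 and 2, 0 and 0 reads in *Tet2*-/- mice 5, 7 and 8. The *Tet2*+/+ level was 7.34 ± 8.05 CPM (SD, n = 3), and mouse 19 was 7.06-fold above mouse 23. By the reads as assigned this is 48.9-fold above the floor, or 17.9-fold without mouse 19 (mean 2.69 CPM). The leading transcript also changed from mouse to mouse. *Gm16867*-207 held 42.1% of the reads in mouse 19, *Gm16867*-201 held 53.5% in mouse 23, and *Gm16867*-203 held 79.6% in mouse 24.

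The spread was smaller once the reads of a neighbour with identical sequence were added. The transcript of *Gm27177*, an antisense-class gene 78.8 kb away, is identical over its whole length to 2946 bases of *Gm16867*-207, which is 92.3% of that transcript. *Gm27177* had 0, 124 and 137 reads in mice 19, 23 and 24 and 11, 4 and 6 in *Tet2*-/- mice 5, 7 and 8. Summed, a choice made after the values were seen, both genes had 278, 168 and 180 reads in the *Tet2*+/+ mice and 13, 4 and 6 in the *Tet2*-/- mice. In CPM these sums were 12.8 ± 3.82 and 0.331 ± 0.0772 (SD, n = 3 each), a ratio of 38.5, and the coefficient of variation among *Tet2*+/+ mice fell to 29.9% from 110% for *Gm16867* alone. Reads from the identical stretch cannot be placed on 1 of the 2 genes, and the sum is over 3 reads in every *Tet2*-/- mouse. Alignments to transcripts of other genes covered every *Gm16867* transcript in full. In *Gm16867*-201, 382 bases (12.4% of the transcript) were identical to *Slc25a37* sequence on the same strand. *Gm16867*-201 was assigned 99.7, 23.7 and 5.71 reads in mice 19, 23 and 24. The part of *Slc25a37* in these reads was not tested. Mouse 19 also had the highest summed level of erythroid markers (145 CPM against 5.70 to 15.2 in the other 5 mice), although Ter119+ cells were removed by the sort. The part of these cells in the *Gm16867* value was not tested.

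*Ptprf* (ENSMUSG00000033295, chr4:118208213-118291405, minus strand) had 307, 258 and 261 reads in mice 19, 23 and 24 and 109, 56 and 68 reads in *Tet2*-/- mice 5, 7 and 8. The level was 16.9 ± 2.63 CPM in *Tet2*+/+ and 3.58 ± 0.122 CPM in *Tet2*-/- mice (SD, n = 3 each), 4.71-fold lower without TET2. The log2 fold change was -2.23 (SE 0.24). The genotypes did not overlap, and the *Tet2*-/- mice, between 3.45 and 3.69 CPM, were close to each other.

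The full-length coding transcript *Ptprf*-201 led in both genotypes. It held 94.6%, 92.4% and 78.5% of the *Ptprf* reads in mice 19, 23 and 24 and 64.3%, 78.6% and 81.9% in *Tet2*-/- mice 5, 7 and 8. The share was 13.6 percentage points lower in the *Tet2*-/- mice (88.5% ± 8.74 against 74.9% ± 9.38, SD, n = 3 each), and the genotypes overlapped. Taken over TPM, the share was 30.6 percentage points lower (79.6% against 49.1%), at 65.3% to 91.3% against 43.6% to 58.7% without overlap. The TPM shares rest in part on few reads on short transcripts. In mouse 8, 5.23 reads on *Ptprf*-207 made 29.3% of the TPM, and in mouse 5, 1.90 reads on *Ptprf*-204 made 18.9%. An exact permutation test gave p = 0.3 over reads and p = 0.1 over TPM, where 0.1 is the smallest p possible with 3 mice per group. *Ptprf*-203 starts inside the gene and has 0 bases outside the other transcripts, so its reads are an estimate. The other reads in mouse 5 were mainly on *Ptprf*-203, with 34.0% of the reads, and those in mouse 7 on the 3′ transcript *Ptprf*-202, with 21.4%. The 6 near-silent genes had too few reads in *Tet2*-/- mice for such a comparison.

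**Figure D2:**
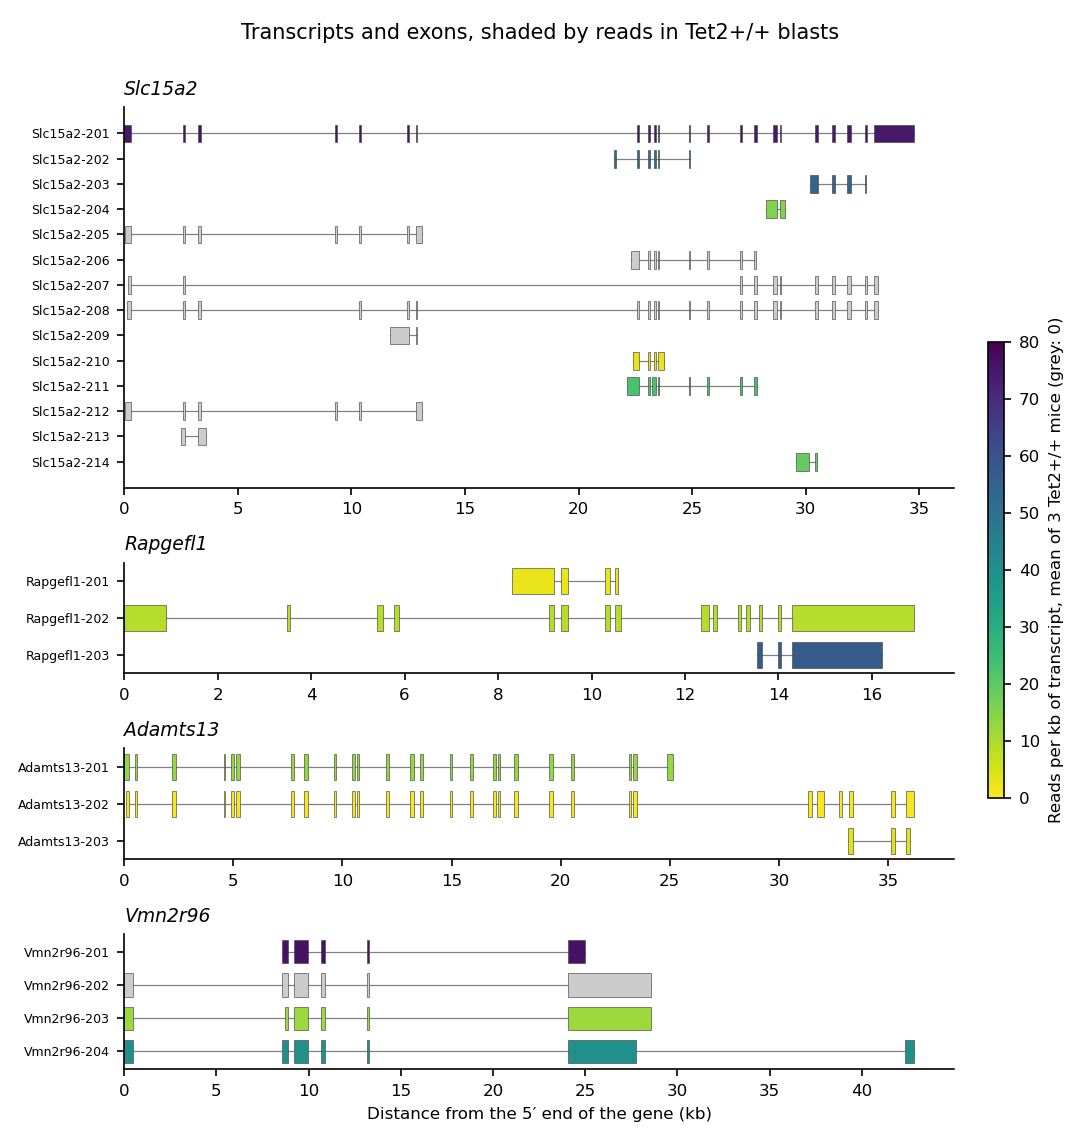
Annotated transcripts of 4 near-silent genes, with exons as boxes and the distance from the 5′ end of the gene in kb on the x axis. Shading gives reads per kb of transcript as the mean of 3 *Tet2*+/+ mice, and grey transcripts had none. Per kb, reads within *Slc15a2* were densest on the full-length transcript (74.8, against 54.7 for *Slc15a2*-203). Within *Rapgefl1* they were densest on the 3′ transcript (57.0) and within *Adamts13* on the early-ending transcript (12.9).

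Together, the 6 near-silent genes had 1077, 1109 and 1745 reads in mice 19, 23 and 24, and 8, 5 and 5 reads in *Tet2*-/- mice 5, 7 and 8. All 7 genes were lower in every *Tet2*-/- mouse than in any *Tet2*+/+ mouse, as were 7.94% of all genes tested, while 6.41% were higher in every *Tet2*-/- mouse. The median log2 change of the 7 genes, with the near-silent genes at their 3-read bound, was -5.61, against 0.00 over all genes tested. This median is the value of *Gm16867*, which was -5.27 when summed with *Gm27177*.

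Among protein-coding genes with more than 3 reads and at least 1 CPM in every *Tet2*+/+ mouse, 8 of 11018 (0.0726%) had at most 3 reads in every *Tet2*-/- mouse. These are the 6 near-silent genes, *Gm21958* and *Tdrd9*, and just outside were *D630003M21Rik*, *Fam83a* and *Ptprn*, each with up to 6 reads in a *Tet2*-/- mouse. In the reverse direction, 0 of 10608 protein-coding genes met the same criterion. Over the 3 *Tet2*+/+ mice, the coefficient of variation of CPM lay between 25.9% and 26.9% for *Slc15a2*, *Rapgefl1* and *Fsd2* and was 64.6% for *Adamts13* and 84.7% for *Vmn2r96*. The median was 17.3% for all genes between 2 and 80 CPM.

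**Figure D3:**
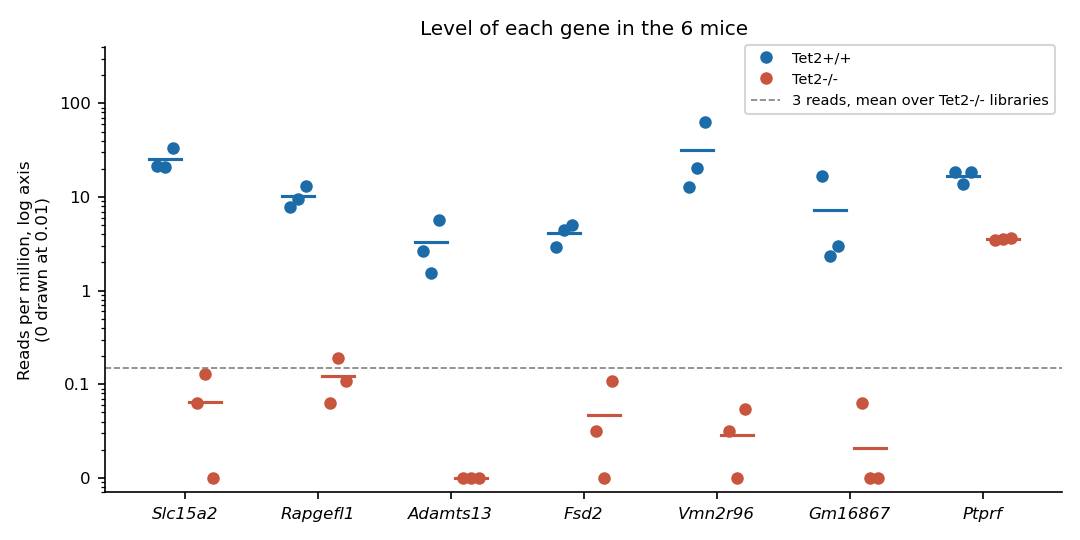
Level of each gene in CPM on a log axis, with 1 point per mouse, lines at the group means and values of 0 drawn at 0.01. The dashed line is the level of 3 reads averaged over the *Tet2*-/- libraries. The 6 near-silent genes have *Tet2*-/- points around or below this line, and *Ptprf* stays between 3.45 and 3.69.

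In TPM over the *Tet2*+/+ mice, the order was *Slc15a2* (13.6 ± 2.71), *Vmn2r96* (6.17 ± 5.36), *Rapgefl1* (2.74 ± 0.770), *Gm16867* (1.88 ± 1.63), *Ptprf* (1.27 ± 0.244), *Adamts13* (0.716 ± 0.612) and *Fsd2* (0.581 ± 0.182), each as mean and SD with n = 3. The values of each pair of neighbours in this order overlapped between mice.

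Whether the loss reached beyond each gene was examined in the 139 other tested genes that lie within 500 kb of one of the 7. No neighbour passed an adjusted p of 0.05 in either direction with edgeR's quasi-likelihood test, by which 0.0451% of all tested genes were called lower and 0% higher. Without adjustment, 6 had p under 0.05 in the lower and 3 in the higher direction, where the shares over all genes were 5.12% and 3%. The median log2 fold change of the neighbours was 0.01. By gene, the medians were -0.47 around *Slc15a2*, -1.13 around *Vmn2r96* and -0.27 around *Gm16867*, and 0.38 around *Ptprf*, 0.19 around *Adamts13*, 0.09 around *Rapgefl1* and 0.01 around *Fsd2*. Over all neighbours, 10 were lower and 9 higher without overlap between genotypes (7.94% and 6.41% over all genes).

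With edgeR after the filter on low counts, none of the genes next to the 7 was called. DESeq2, and edgeR without the filter, called *Vmn2r95*, beside *Vmn2r96*, lower, and DESeq2 on length-scaled counts also called *Entpd4*, which overlaps *Gm16867*. *Casc3*, which encodes a subunit of the exon junction complex and ends 2.97 kb from *Rapgefl1*, had 69.3 ± 2.15 CPM in *Tet2*+/+ and 77.6 ± 7.50 in *Tet2*-/- mice (log2 fold change 0.16, SE 0.15). On the other side of *Rapgefl1*, *Wipf2*, which encodes a regulator of actin assembly, had a log2 fold change of 0.07 (SE 0.20). The 28 neighbours of *Rapgefl1* lay between -0.98 and 0.55, those of *Adamts13* reached 4.93 and those of *Ptprf* lay between -2.55 and 1.98. Where a neighbour had 10 or more reads in every mouse, the ranges were -0.45 to 1.07 for *Adamts13* and -0.68 to 1.29 for *Ptprf*. *Cacfd1* starts only 0.298 kb beyond the end of *Adamts13*, and it had 34.1 ± 4.75 CPM in *Tet2*+/+ and 32.0 ± 1.39 in *Tet2*-/- mice. *Rexo4*, on the other side of *Adamts13*, had a log2 fold change of 0.19 (SE 0.15).

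*Whamm*, an actin nucleation factor that starts 4.32 kb from *Fsd2* on the other strand, had 28.0 ± 2.62 and 28.3 ± 6.34 CPM. The unclassified gene *Gm37829*, 0.787 kb beyond the 3′ end of *Fsd2* and on its strand, had 19, 42 and 30 reads in *Tet2*+/+ and 39, 7 and 17 in *Tet2*-/- mice, which overlap. The 24 neighbours of *Slc15a2* lay between -1.85 and 0.99. Beside it, the microRNA gene *Gm22617* had a log2 fold change of -0.42 (SE 0.46) and *Ildr1* of -0.68 (SE 0.69). Beside *Ptprf*, the histone demethylase gene *Kdm4a* had a log2 fold change of -0.26 (SE 0.18) and *Hyi* of -0.68 (SE 0.30). The *Kdm4a* difference, at 120 ± 17.7 against 100.2 ± 14.2 CPM, did not pass the test.

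All 6 tested neighbours of *Vmn2r96* were other vomeronasal receptor genes, with log2 fold changes between -3.59 and -0.07. After the filter edgeR called none, 3 were lower at an unadjusted p under 0.05 (5.12% over all genes), and 4 were lower without overlap between genotypes (7.94% over all genes). *Vmn2r95*, 112 kb upstream, had 63, 109 and 202 reads in mice 19, 23 and 24 and 17, 14 and 10 in *Tet2*-/- mice 5, 7 and 8. Its log2 fold change was -3.59 (SE 0.61) with an adjusted p of 0.167 in the edgeR test, and -2.87 without mouse 24. *Vmn2r97*, 298 kb downstream, had 1040, 944 and 2571 reads against 1343, 337 and 639, a log2 fold change of -1.57 (SE 0.52, adjusted p = 0.544 by the same edgeR test) that was -0.78 without mouse 24 and -0.92 on length-scaled counts. In both genes, as in *Vmn2r96*, mouse 24 was the highest. Among the other 4, *Vmn2r94* had a log2 fold change of -1.55 (SE 0.64) at 11 reads or fewer per mouse and *Vmn2r124* one of -0.71 (SE 0.34), both without overlap, and *Vmn2r92* and *Vmn2r93* had -0.07 and -0.39 with overlap.

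These receptor genes are close copies. *Vmn2r96*-202, which received no read, aligned to *Vmn2r97* over 93.3% of its length at 91.8% identity and to *Vmn2r95* over 46.5% at 91.1%. It also aligned to the pseudogene *Vmn2r-ps117* over 84.9% at 95.7% identity. *Vmn2r96*-201, which had the most reads per kb, aligned to the pseudogene *Vmn2r-ps115* over 84.3% at 96.1% identity. Reads can therefore be shared among copies, and the value of a single receptor gene is uncertain. Around *Gm16867*, *Entpd4*, which encodes a nucleotide-hydrolysing enzyme and overlaps it on the other strand, had 51.5 ± 11.9 and 25.1 ± 7.64 CPM (log2 fold change -1.04, SE 0.28, adjusted p = 0.433 by edgeR). A 1680-base stretch of *Gm16867*-205 is the reverse complement of *Entpd4* sequence and of the annotated copy *Entpd4b*. The library kit does not keep the strand, so reads in this stretch cannot be told apart.

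**Figure D4:**
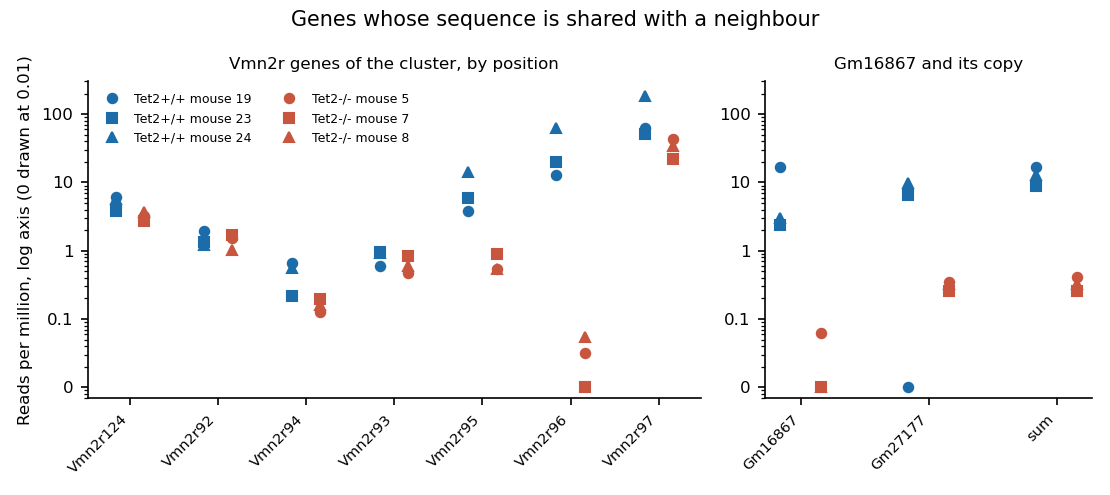
Level in CPM on a log axis, 1 symbol per mouse and 0 drawn at 0.01, of *Vmn2r96* and its tested neighbours in chromosomal order (left) and of *Gm16867*, *Gm27177* and their sum (right). *Gm27177* is at 0 only in mouse 19, where *Gm16867* is highest, and the *Tet2*+/+ sums lie between 8.99 and 16.6.

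**Figure D5:**
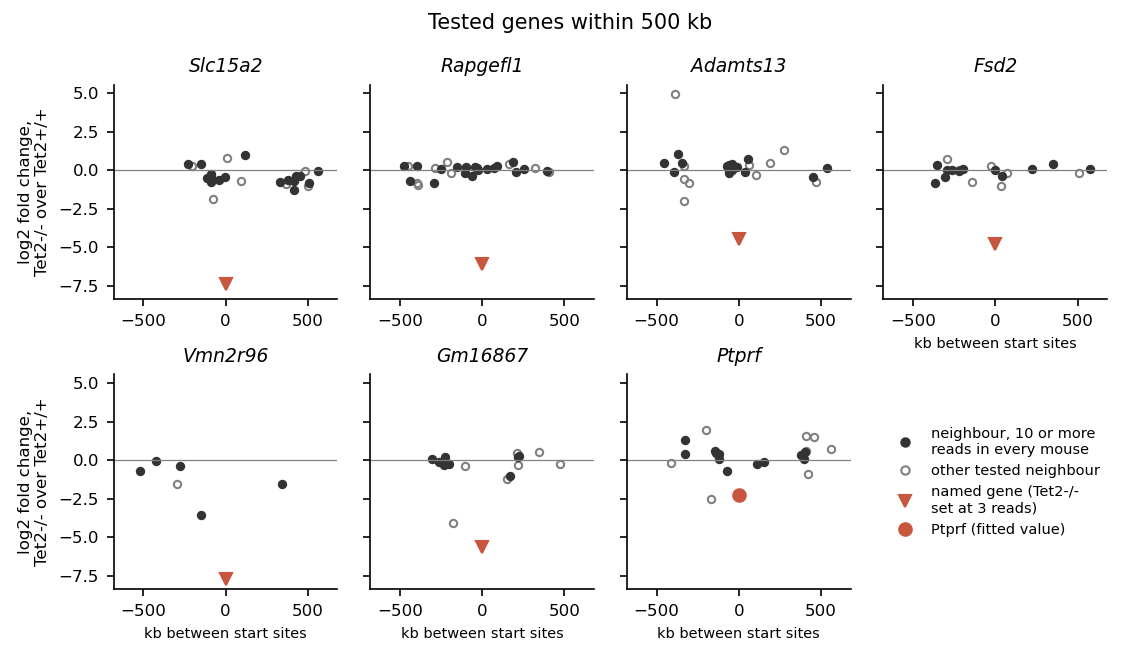
The log2 fold change (*Tet2*-/- over *Tet2*+/+, y axis) of each tested gene within 500 kb against the distance between start sites in kb (x axis), with positive distances downstream of the named gene. Triangles are the 6 near-silent genes with *Tet2*-/- mice set at 3 reads, which for *Gm16867* holds only for the reads as assigned, and the red circle is the fitted value of *Ptprf*. Neighbours with 10 or more reads in every mouse (filled) lie between -1.26 and 1.29 except around *Vmn2r96*.

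The other genes of each pathway were also examined, from lists chosen with earlier results of these data known. Over all lists, 119 genes were tested, of which 0 were lower and 0 higher at an adjusted p under 0.05 with edgeR, and 9 (7 of them vomeronasal receptors) were lower and 0 higher at an unadjusted p under 0.05. Over all tested genes, 5.12% were lower and 3% higher at that threshold. Without the vomeronasal receptors, 61 genes were tested and their median log2 fold change was 0.00, as it was over all genes at this precision.

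Among 8 genes of peptide transport and sensing, the log2 fold changes lay between -0.39 and 0.75. *Slc15a4*, the endolysosomal transporter that exports histidine and peptides, had 162 ± 64.0 TPM in *Tet2*+/+ and 160 ± 72.9 TPM in *Tet2*-/- mice (SD, n = 3 each). *Slc15a3*, a further member of this family, had 6.65 ± 4.51 and 10.9 ± 7.64 TPM. *Slc15a1*, which encodes the intestinal transporter PEPT1, had 0.0619 TPM in *Tet2*+/+ mice. None of the 8 passed an unadjusted or adjusted p of 0.05 with edgeR.

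Of 21 genes of Rap signalling, 0 were called at an unadjusted p under 0.05. *Rasgrp2*, the exchange factor for Rap1 with the highest abundance of this list, had 232 ± 23.6 and 260 ± 66.9 TPM, and *Rap1b*, a Rap GTPase, 107 ± 4.54 and 125 ± 22.9 TPM. Of 23 listed ADAMTS proteases and partners of von Willebrand factor, 15 were tested. *Adamts10* was the most abundant, at 20.6 ± 5.80 and 20.9 ± 4.20 TPM, and *Vwf*, the substrate of ADAMTS13, had a log2 fold change of -0.08 (SE 0.50). *Adamts14*, a procollagen protease, had an unadjusted p of 0.0177 and an adjusted p of 0.543 with edgeR at a log2 fold change of -1.57.

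Of 13 listed partners and relatives of LAR, 11 were tested. *Ppfibp1*, which encodes liprin beta 1, had 5.05, 5.20 and 2.88 TPM in mice 19, 23 and 24 and 1.45, 0.887 and 1.27 TPM in *Tet2*-/- mice 5, 7 and 8. These values did not overlap, with a log2 fold change of -1.63 (SE 0.33, adjusted p = 0.255 by edgeR), and DESeq2 called the gene lower. The related phosphatase gene *Ptprs* had 26.1 ± 2.18 and 17.9 ± 8.25 TPM, and *Ctnnb1*, which encodes beta-catenin, 128 ± 12.2 and 135 ± 23.4 TPM. Of the 7 genes around *Fsd2*, 6 were tested, and *Dtnbp1*, which encodes dysbindin, had 31.0 ± 2.54 and 24.6 ± 4.27 TPM. Of 237 other genes and pseudogenes of vomeronasal type 2 receptors, 58 were tested (1 of them a pseudogene), 7 were lower (5.12% over all genes) and 0 higher at an unadjusted p under 0.05, and the median log2 fold change was -0.38. *Vmn2r97* was the most abundant, at 10.6 ± 4.08 and 5.17 ± 1.63 TPM.

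Fewer cells of a type and less RNA per cell cannot be told apart in these bulk samples. The summed level of the basophil and mast cell list was 304 to 396 CPM in *Tet2*+/+ and 30.8 to 110 CPM in *Tet2*-/- mice, and most of it was *Cpa3* (263 to 362 CPM in *Tet2*+/+ mice). Of its 6 genes 4 were tested, and 0 of the 6 were at 0 reads in every mouse. *Cpa3* and *Gata2* were lower without overlap, whereas *Mcpt8* and *Ms4a2* overlapped (log2 fold changes -0.99, SE 0.55, and 0.48, SE 0.53). *Gata2* is also expressed in blood progenitors. The megakaryocyte list held 29.0 to 51.2 CPM in *Tet2*+/+ and up to 30.9 in *Tet2*-/- mice, which overlap, but its *Itga2b* was lower without overlap (log2 fold change -1.34, SE 0.43). The summed levels for B cells, T and NK cells, stroma and macrophages overlapped between genotypes. Of the 8 stromal and endothelial markers, *Pdgfrb* was lower without overlap, at 26.6, 42.7 and 34.6 CPM in mice 19, 23 and 24 and 10.3, 6.88 and 9.82 CPM in mice 5, 7 and 8 (log2 fold change -1.94, SE 0.27). No marker passed an adjusted p of 0.05 with edgeR. The part of these cells in the loss of the 7 genes was not tested.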

How the data were processed

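RNA-seq of AML blasts of 3 *Tet2*+/+ and 3 *Tet2*-/- mice was analysed. Estimated counts of reads per transcript were deposited by the authors as Salmon 0.12.0 made them, per the authors' methods against Ensembl transcripts of GRCm38, from libraries that do not keep the strand. The TPM values deposited by the authors are corrected for effective length and have the same total in every mouse. The members and lists were chosen with earlier results of these data known.

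Estimated counts were summed to GENCODE M21 genes, rounded, and kept where normalized counts summed to at least 10. The 112 transcripts without a gene held 0.0307% to 0.0416% of the reads. Genotypes were compared over all genes with edgeR 4.0.16 (quasi-likelihood, TMM, Benjamini-Hochberg, threshold 0.05), checked on simulated data. Per the authors' methods the study used DESeq2, here an alternative (1.42.0). Where every *Tet2*-/- mouse had at most 3 reads, the fold is a bound against 3 reads. This floor covers counting error only.

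Named genes are the 7 genes, their nearest tested and overlapping genes, neighbours or list genes past the threshold, the most abundant gene of each list, genes with near-identical transcripts, *Tet2* and *Cebpa*. Others were chosen after their values were seen: *Tdrd9*, *Gm21958* and genes just outside the threshold, neighbours and list genes at an unadjusted p under 0.05, and further examples from the lists. *Cebpa* had 140, 194 and 287 CPM in mice 19, 23 and 24 and 158, 75.7 and 124 CPM in mice 5, 7 and 8. Transcripts were aligned with BLAST 2.17.0 (at least 75 bases, 90% identity). Alternatives were other tools, filters, scalings, windows, pseudocounts and leaving out each mouse.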

Additional observations from a re-analysis of the deposited data

How the results depend on the processing

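With at most 2 reads allowed, 5 of the 6 near-silent genes remained so. Allowing 6 reads or leaving out a mouse only relaxes the criterion, so the 6 they gave show no stability. These settings, and the fold bounds without a mouse, were chosen after seeing the data. Over all genes, edgeR called 10 lower and 0 higher. DESeq2 called 326 lower and 59 higher, DESeq2 on length-scaled counts 322 and 64, edgeR without a filter 62 and 4, and edgeR on length-scaled counts 5 lower. A single gene was higher (1) with filterByExpr and with RLE factors. Leaving out each mouse gave 0 to 7 lower genes, with 0 without mouse 5, 7 or 8, 1 without mouse 24 and 2 without mouse 23.

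Among neighbours, 0 were called lower by edgeR, 1 (*Vmn2r95*) by DESeq2, 2 (*Vmn2r95* and *Entpd4*) by DESeq2 on length-scaled counts and 1 (*Vmn2r95*) without a filter. Among list genes these counts were 0, 3 (*Ppfibp1*, *Vmn2r84* and *Vmn2r95*), 3 (the same genes) and 1 (*Vmn2r95*). None was higher in any of these fits, and windows of 200 kb and 1 Mb gave 0 calls.

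The median fitted log2 change of the 7 genes was -7.71, with values of -8.55 and -8.69 on length-scaled counts with edgeR and DESeq2, and -8.57 to -6.57 when a mouse was left out. It was -1.38 on log2(TPM + 1) and -3.96 on log2(TPM + 0.1), since a pseudocount bounds the change of low genes. The lower *Ptprf*-201 share of 13.6 percentage points was 30.6 over TPM (-13.6 and -30.6). *Casc3* turned from 0.16 to -0.018 under scaling by library size alone, where the median over all genes moved from 0.00 to -0.17. *Wipf2* (0.07 to -0.12) and *Whamm* (0.01 to -0.17) turned there too, and *Cacfd1*, *Gm8425*, *Adamts10*, *Rasgrp2* and *Tet2* changed sign under at least 1 alternative. These 7 had log2 fold changes smaller than their SE. The cause of these shifts was not tested. Near-silent levels are limited by depth, as 3 reads are 0.150 CPM on average. No paired analysis was possible because the genotypes share no replicate numbers.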
